A study of Mus musculus with 4 samples.

Results

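Tubulin isotypes are the products of separate genes for the same protein subunits. An alpha and a beta subunit form the dimer that polymerises into microtubules, the filaments of the mitotic spindle and of the interphase cytoskeleton, while gamma tubulin sits in the ring complex from which new microtubules grow. Dividing cells use a few general isotypes, and Tubb3 and Tubb2b are best known from neurons. Cells with too much free tubulin degrade tubulin mRNA during its translation, a loop in which the protein Ttc5 recognises the first amino acids of a newly made alpha or beta chain.

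The genes described here are 10 named isotype genes, taken wherever a locus of either deposited table carries exactly that symbol, out of 13396 single gene symbols in the tables. They are the alpha genes Tuba1a, Tuba1b, Tuba1c and Tuba4a, the beta genes Tubb2a, Tubb2b, Tubb3, Tubb5 and Tubb6, and the gamma gene Tubg1. All 10 had a locus of their own in set 1 and 8 in set 2, where Tubb2a and Tubb2b were merged into 1 locus. Another abundant beta gene, Tubb4b, is not among the 10 and was added to the description after its level was seen.

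RNA was measured in mouse embryonic stem cells in which the chromatin remodeler Chd1 can be deleted. Every cell carried Rosa26CreER, a tamoxifen-activated Cre driven from the Rosa26 locus, and 1 floxed and 1 null allele of Chd1. Control cells received ethanol and so kept 1 functional allele; Chd1-/- cells received 1 µM tamoxifen. Both were exposed for 48 to 72 h and then expanded for 3 to 5 passages without tamoxifen in medium with serum and LIF, the cytokine that keeps these cells undifferentiated. The agent therefore differs between the groups along with the allele, and the effects of each cannot be told apart. The labels name 2 sets with 1 control and 1 Chd1-/- library each (n = 2 per group) and mention 2 independently derived lines, without saying which line gave which set. Nothing in the labels ties a set to separate cultures beyond this, so replicate error here is the spread between the 2 sets, which the test pools over genes of similar level.

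Chd1, the targeted gene, stood at 27.6 and 5.71 FPKM in the control and Chd1-/- library of set 1, and at 17.9 and 8.52 in set 2. It was lower in both, at 20.7% and 47.7% of control, and in set 2 that is close to the ratios of Tubb3 (51.4%) and Tuba1b (52.6%). A value for the whole gene does not measure the deleted part, so the check of the labels is weak in set 2. FPKM, the fragments per kilobase of transcript, is a level per transcript length, so isotypes can be compared within a library. Its usual form is scaled to library size, but the authors' own scaling of the libraries also enters these values. All loci summed to 584520 and 466994 FPKM in control and Chd1-/- cells of set 1. In set 2 they summed to 719549 and 518032. Pluripotency markers summed to between 1686 and 2963 FPKM in the 4 libraries. Of 12 neural markers 10 were listed in a table, and Dcx was listed in neither. Of 6 primitive endoderm markers 3 were listed, summing to at most 2.57 FPKM. The 7 listed of 8 fibroblast markers summed to between 64.4 and 147 FPKM, mostly Vim. In bulk RNA, fewer cells of a type and less RNA per cell cannot be told apart. Read depth is unknown for values in FPKM.

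The sequences of the isotypes come first, because they decide how well a read can be given to 1 gene. The starts of the coding sequences (GENCODE M21, first 24 bases) are shown with the codons 2 to 4, which encode the residues read in autoregulation, in capitals.
Tuba1a: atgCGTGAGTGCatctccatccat
Tuba1b: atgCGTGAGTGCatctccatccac
Tuba1c: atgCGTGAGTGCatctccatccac
Tuba4a: atgCGCGAGTGCatttcagtccat
Tubb2b: atgCGAGAGATCgtgcacattcag
Tubb3: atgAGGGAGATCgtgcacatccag
Tubb5: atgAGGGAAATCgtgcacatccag
Of the 4 alpha genes, 3 had the same first 12 bases.

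The ends of the coding sequences encode the acidic tails in which isotypes differ most; the last 45 bases are shown for 5 of the genes, with the stop codon in capitals.
Tuba1c: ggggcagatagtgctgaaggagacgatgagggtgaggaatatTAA
Tubb2a: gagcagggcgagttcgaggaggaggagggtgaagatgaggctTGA
Tubb2b: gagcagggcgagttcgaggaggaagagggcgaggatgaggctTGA
Tubb3: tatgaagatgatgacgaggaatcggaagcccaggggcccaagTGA
Tubb5: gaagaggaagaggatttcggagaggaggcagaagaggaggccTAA
Tubb2a and Tubb2b differed at 3 of these 45 bases, whereas Tubb3 and Tubb5 differed at 24. Tuba1a and Tuba1b, whose ends are not shown, differed at 1 of the 45, and from Tuba1c at 18 and 19.

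Over the whole coding sequence, Tuba1a and Tuba1b were 98.3% identical, Tuba1b and Tuba1c 97.9%, and Tubb2a and Tubb2b 96.5%. Tubb3 and Tubb5 were 81.4% identical and shared no stretch longer than 26 bases. Reads were 100 bases long, so each transcript was cut into all its windows of 100 bases. Every window was looked for, without mismatches and on the same strand, in the transcripts of all other annotated genes. Near matches, and matches outside annotated transcripts, were not counted. Windows found in another gene made up 69.5% of the Tuba1b transcript, 65.1% of Tuba1a and 53.4% of Tuba1c. Each shared them with its alpha paralogs and with genes carrying predicted-gene names. The share was 36.9% for Tubb2a, 27.7% for Tubb2b, 29.2% for Tubb4b and 4.11% for Tubg1, and 0% for Tubb3, Tubb5, Tubb6 and Tuba4a. Values of Tuba1a, Tuba1b, Tuba1c, Tubb2a, Tubb2b and Tubb4b are therefore uncertain as single-gene values, since how the authors divided shared reads is not given in the sources used here. In RefSeq's GRCm38.p6 gene table Tuba1b, Tuba1a and Tuba1c follow each other as neighbouring coding genes on chromosome 15, and Tubb2a and Tubb2b do so on chromosome 13.

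In control cells, 4 isotypes carried most of the tubulin RNA. Tuba1b, the general alpha isotype of dividing cells, stood at 859 FPKM in control 1 and 808 in control 2. Tubb4b stood at 819 and 762, just under Tuba1b in each control library. Tubb5, the general beta isotype, followed at 556 and 412, and Tuba1a, an alpha isotype abundant in the developing brain, at 242 and 326. Tuba1c stood at 108 and 119 FPKM. Each of these lay above the next in both control libraries, although the ranges of Tuba1b and Tubb4b over the 2 controls overlapped.

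The low isotypes stood under Tuba1c in both controls. Tubb6 was at 30.2 and 50.6 FPKM, Tubb3 at 34.0 and 20.9, and Tuba4a at 26.8 and 25.4, and their order differed between the 2 controls. Tubg1, the gamma tubulin of the ring complex, was at 16.6 and 21.1. Tubb2b was at 41.6 and its neighbour Tubb2a at 8.81 in control 1, and the merged locus was at 48.3 in control 2. Among the 10261 tested genes Tuba1b ranked 75 and 89 by level in the controls, and Tubb3 2161 and 3241. In both Chd1-/- libraries Tubb4b (808 and 543 FPKM) stood above Tuba1b (491 and 425). Tubb3 stood above Tubg1 in Chd1-/- 1 (15.9 against 10.9) and under it in Chd1-/- 2 (10.7 against 16.4). Whether the tables of the 2 sets share a scale is not given, so ranges over both sets also hold any difference in scale.

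**Figure D1:**
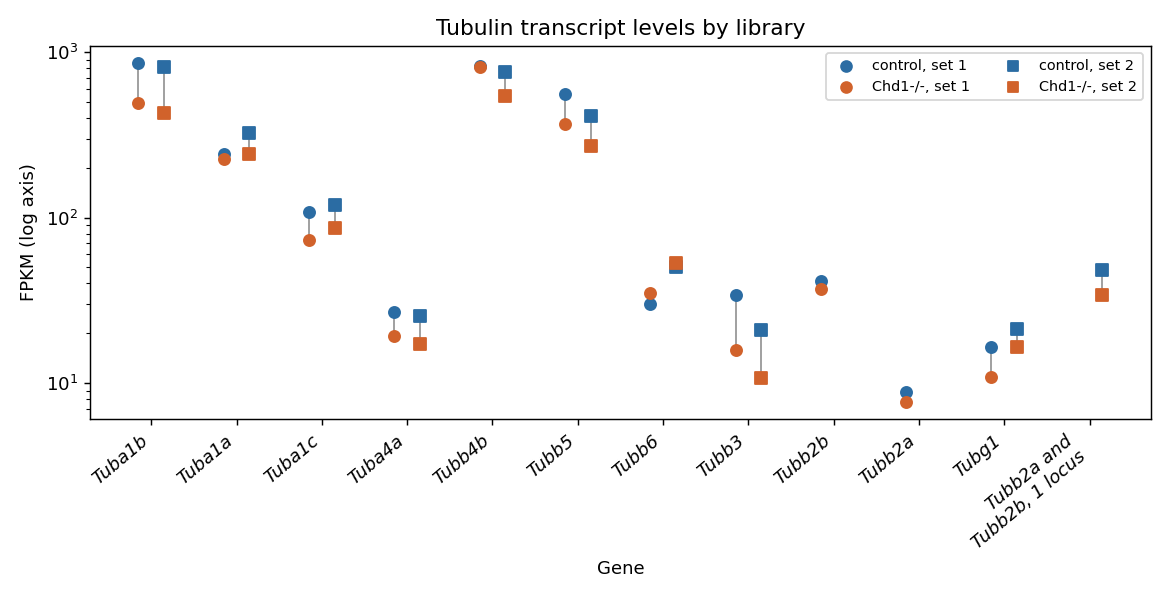
FPKM on a log axis for each isotype, with circles for set 1, squares for set 2, blue for control and orange for Chd1-/-; a line joins the libraries of a set. Tuba1b, Tubb5 and Tubb3 lie lower in the Chd1-/- library of both sets, and Tubb6 slightly higher, at 34.8 against 30.2 and 53.0 against 50.6.

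The comparison of Chd1-/- with control cells asks how much of each isotype's RNA was left per cell. Values were compared as log2(FPKM + 0.1), with limma fitted over 10261 genes, set as a block and adjusted p-values over all of them. A change per cell rests on the authors' normalization to cell number. The labels give 1 µg of RNA and 92 ERCC spike-in transcripts for every library. How the spike-ins entered the values is not given in the sources used here. Of the 10 isotype genes 8 could be tested, and all 8 passed the filter of a mean of at least 1 FPKM. Of these, 4 fell (Tuba1b, Tuba1c, Tubb5 and Tubb3), 0 rose and 4 did not pass; over all genes 9.8% fell, 0.0682% rose and 9.87% passed in either direction. At an unadjusted p under 0.05 there were 6 of the 8, and 29.2% of all genes. Their median log2 ratios were -0.58 and -0.51 for sets 1 and 2, against -0.46 and -0.33 for all tested genes. In the same test 7 of 8 pluripotency markers fell, and 0 of them passed relative to the median of all genes. Values were lower in both sets for 72.4% of all tested genes. Where the groups of a gene are described below as without overlap, the share of all genes like this was not counted.

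Tuba1b stood at 859 FPKM in the control and 491 in the Chd1-/- library of set 1, with 808 and 425 in set 2, so that both Chd1-/- libraries lay under both controls. It fell by 0.87 on the log2 scale (limma SE 0.18, adjusted p = 0.00028), leaving 57.2% and 52.6% of control. It is also the isotype with the largest share of windows found in other genes. Tuba1c, another alpha gene of dividing cells, stood at 108 and 72.7 FPKM in set 1 and at 119 and 86.7 in set 2, without overlap of the groups. It fell by 0.51 (limma SE 0.17, adjusted p = 0.0353).

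Tuba1a, next to Tuba1b in the genome, was at 242 and 227 FPKM in set 1 and at 326 and 244 in set 2. The groups overlapped, and the log2 change of -0.26 did not pass (limma SE 0.17, adjusted p = 0.29). Tuba4a went from 26.8 to 19.1 FPKM and from 25.4 to 17.2. The groups did not overlap, but the log2 change of -0.52 did not pass (limma SE 0.21, adjusted p = 0.0878).

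Among the beta genes, Tubb5 dropped from 556 to 367 FPKM (set 1) and from 412 to 270.3 FPKM (set 2). The ratios were nearly equal, at 66.1% and 65.6% of control, and both Chd1-/- libraries lay under both controls. Tubb5 fell by 0.60 (limma SE 0.17, adjusted p = 0.0141), and none of its transcript windows occurs in another gene. Tubb4b was at 819 and 808 FPKM in set 1 but at 762 and 543 in set 2. Its log2 ratios were -0.02 and -0.49, and the mean of -0.25 did not pass (limma SE 0.18, adjusted p = 0.33).

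Tubb6, a widely expressed beta isotype, was the single gene of the 8 with a higher value in both sets. It stood at 30.2 and 34.8 FPKM in set 1 and at 50.6 and 53.0 in set 2, where the groups overlapped across sets. The log2 change of 0.14 did not pass (limma SE 0.19, adjusted p = 0.60). Its log2 ratios lay at percentile 95.3 of all tested genes in set 1 and 86.1 in set 2.

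Tubb3, the neuronal beta isotype, had the lowest mean ratio of the 8. The first set had 34.0 FPKM in control and 15.9 in Chd1-/- cells, the other 20.9 and 10.7, and both Chd1-/- libraries lay under both controls. It fell by 1.02 (limma SE 0.22, adjusted p = 0.00042), leaving 46.8% and 51.4% of control. Its log2 ratio lay at percentile 14.0 of all tested genes in set 1 and at 6.23 in set 2. The other neuronal isotype, Tubb2b, was at 41.6 and 37.2 FPKM in set 1 (89.4% of control), and Tubb2a at 8.81 and 7.69 (87.4%). In set 2 the locus that merges them was at 48.3 and 34.0 FPKM (70.5%). Neither could be tested, because the tables define them differently.

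Tubg1 was at 16.6 and 10.9 FPKM in set 1 and at 21.1 and 16.4 in set 2. The groups missed overlap narrowly, and the log2 change of -0.49 did not pass (limma SE 0.23, adjusted p = 0.14).

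Without the block, with one common prior variance, or with each library divided by its own summed FPKM, none of the 8 passed in limma. The lowest limma adjusted p-values were 0.46, 0.29 and 0.12, and 4, 2 and 3 of the 8 had an unadjusted p under 0.05. Of all tested genes, 0, 0 and 85 were called in these settings, and 10.2%, 16.7% and 7.11% had an unadjusted p under 0.05. With a mean of at least 5 FPKM, Tubb5 (limma adjusted p = 0.0541) and Tuba1c (0.0823) did not pass, and 227 genes were called.

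**Figure D2:**
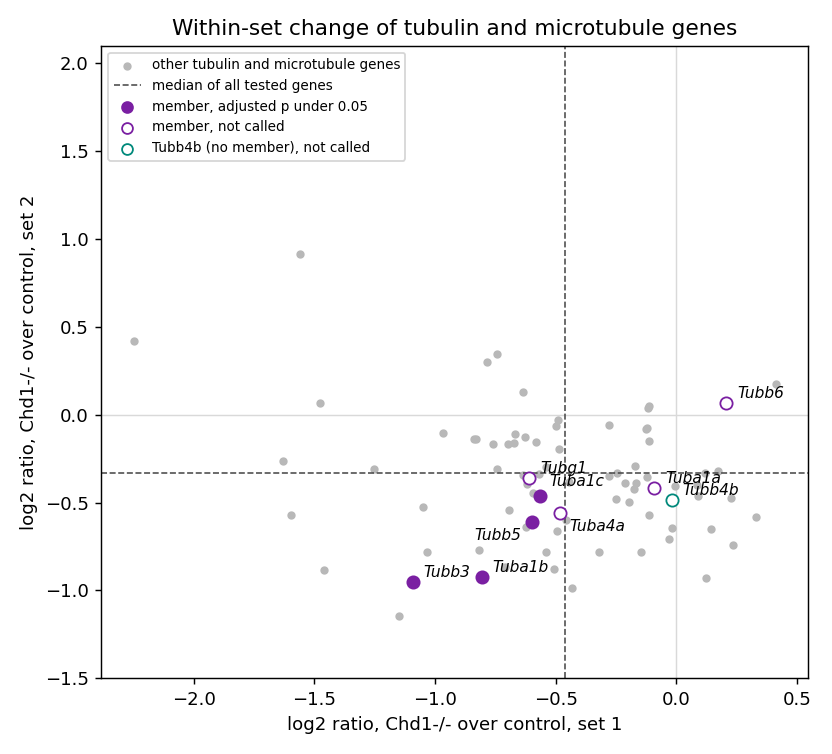
Log2 ratio of Chd1-/- over control in set 1 (x axis) and set 2 (y axis) for 8 isotypes (purple, filled where limma's adjusted p is under 0.05), Tubb4b (green) and other tubulin and microtubule genes (grey), with dashed lines at the medians of all tested genes. Tubb3 and Tuba1b lie lowest along both axes among the isotypes, and Tubb6 lies above 0 on both.

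Most genes had lower values in Chd1-/- cells, so a second comparison subtracted each set's median log2 ratio. None of the 8 isotypes passed it in limma (lowest adjusted p = 0.47; 2 at an unadjusted p under 0.05, as were 6.29% of all genes; 0.361% of all genes were called in either direction). Tubb3 stood at -0.63 beyond the median in set 1 and at -0.63 in set 2 (limma adjusted p = 0.47). Tubb6 stood at 0.67 and 0.40 above it (mean 0.53, limma SE 0.22, adjusted p = 0.58). Tuba1b stood at -0.35 and -0.60 (mean -0.47, limma SE 0.30, adjusted p = 0.93), Tubb5 at -0.14 and -0.28, and Tuba1c at -0.11 and -0.13.

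Median ratios also differed by level, so each isotype was set beside the tested genes of similar mean level, which were ranked by level and divided into 10 bins. The 1026 genes of the highest bin had medians of -0.21 (set 1) and -0.38 (set 2). Beyond these medians, Tuba1b lay at -0.59 and -0.54 and Tubb5 at -0.39 and -0.22. Tuba1a lay at 0.12 and -0.03, and Tuba1c at -0.35 and -0.08. Against the bins of their own level, Tubb3 lay at -0.78 and -0.59 and Tubb6 at 0.47 and 0.45. These differences carry no test.

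With each library divided by its own summed FPKM, which shifts the median of all genes to -0.14 in set 1 and 0.14 in set 2, the mean log2 change of Tuba1a turned to 0.14 and that of Tubb4b to 0.15. It stayed negative for Tuba1b (-0.47), Tubb3 (-0.63), Tubb5 (-0.20), Tuba1c (-0.11), Tuba4a (-0.12) and Tubg1 (-0.09), and positive for Tubb6 (0.53). In set 2 alone Tuba1c then stood at 0.01 and Tubg1 at 0.11.

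The isotype genes summed to 1922 FPKM in the control and 1283 in the Chd1-/- library of set 1. In set 2 the 8 genes with a locus of their own summed to 1783 and 1123, and with the merged locus to 1832 and 1157. The Chd1-/- sums were 66.8% of control in set 1 and 63.0% in set 2 (63.2% with the merged locus). The isotype genes made up 0.329% and 0.275% of all summed FPKM in control and Chd1-/- cells of set 1. Without the merged locus they made up 0.248% and 0.217% in set 2. The alpha genes came to 65.6% and 60.5% of control. The beta genes came to 69.0% in both sets, where set 2 leaves out Tubb2a and Tubb2b. With Tubb4b and the merged locus added they came to 85.3% in set 1 and 70.4% in set 2. Sums, shares and isotype ratios are given without a test, because an exact two-sided sign-flip test of 2 pairs cannot go below p = 0.5.

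Within a library, the share of an isotype in its class does not depend on the library's scaling. Tuba1b made up 69.5% of the alpha RNA in control 1 and 60.6% in Chd1-/- 1, and 63.2% and 55.0% in set 2. Tuba1a made up 19.6% and 28.0% in set 1 and 25.5% and 31.5% in set 2, with the larger share in Chd1-/- cells. The ratio of Tuba1b to Tuba1a was 3.55 and 2.16 in control and Chd1-/- cells of set 1 and 2.48 and 1.75 in set 2, a log2 difference of -0.61 ± 0.15 (SD, n = 2). As most windows of both transcripts occur in other genes, this ratio depends on how shared reads were divided.

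Of the beta RNA with Tubb4b included, Tubb5 made up 37.3% in control 1 and 28.9% in Chd1-/- 1, and 31.9% and 29.7% in set 2. Tubb4b made up 55.0% and 63.6% in set 1 and 58.9% and 59.6% in set 2. Tubb6 made up 2.03% and 2.74%, then 3.91% and 5.82%. Tubb3 made up 2.28% and 1.25%, then 1.61% and 1.18%. Tubb5 and Tubb3 thus had the smaller share in the Chd1-/- library of both sets, and Tubb4b and Tubb6 the larger.

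**Figure D3:**
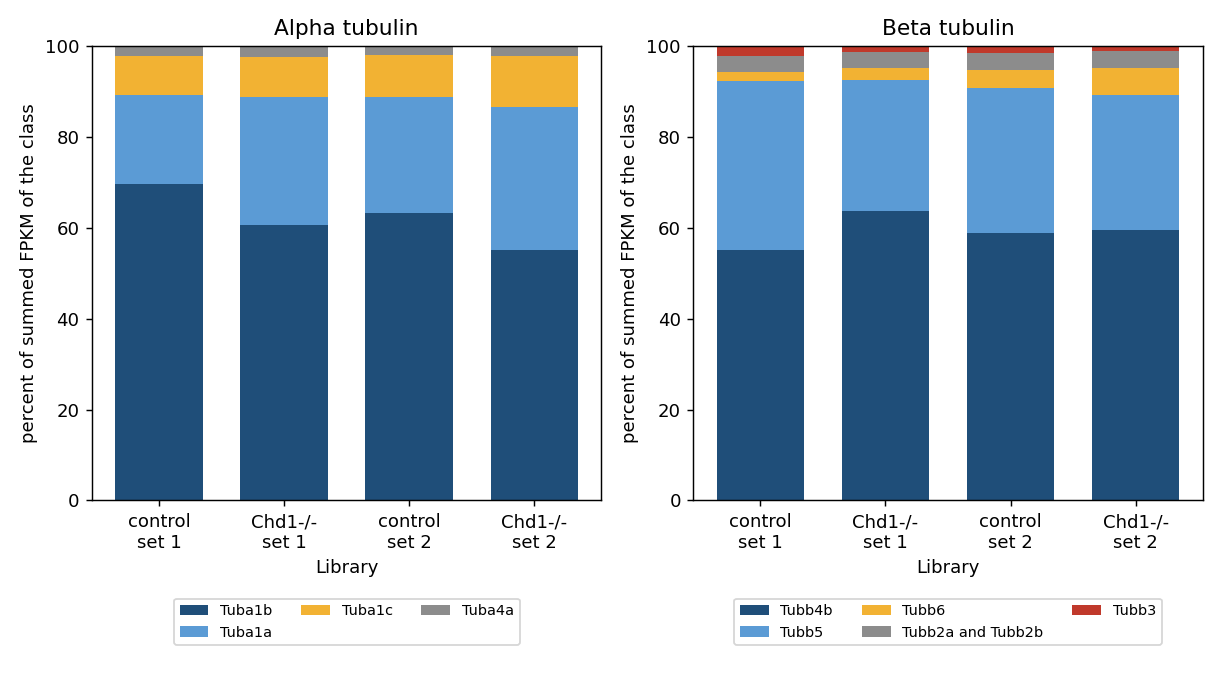
Percent of the summed alpha FPKM (left) and beta FPKM (right) held by each isotype in the 4 libraries. Tuba1b holds 69.5% and 63.2% of alpha in the controls and 60.6% and 55.0% in Chd1-/- cells, and Tubb3 (red) at most 2.28% of beta.

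The ratio of neuronal to general beta isotypes depended on which neuronal gene was counted. Tubb3 stood at 6.12% of the Tubb5 level in control 1 and 4.33% in Chd1-/- 1, and at 5.06% and 3.96% in set 2, a log2 difference of -0.43 ± 0.10 (SD, n = 2). With Tubb2b added in set 1, where it is listed alone, the log2 ratio to Tubb5 differed by 0.09 there, because Tubb2b stood at 89.4% and Tubb5 at 66.1% of control. In set 2, with Tubb3 alone, it differed by -0.35. With Tubb2a included as well, so that both sets hold the same genes, the log2 ratio differed by 0.12 in set 1 and by -0.02 in set 2. Against Tubb6, the ratio of Tubb3 went from 1.13 to 0.456 in set 1 and from 0.412 to 0.202 in set 2, a log2 difference of -1.17 ± 0.19 (SD, n = 2); neither transcript shares a window with another gene.

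Markers of neural cells were set beside Tubb3. The 12 summed to 124 and 89.0 FPKM in control and Chd1-/- cells of set 1 and to 104 and 67.7 in set 2, of which Stmn2 held most. Stmn2, which encodes a tubulin-binding protein of neurons, went from 101 to 71.2 FPKM and from 83.9 to 45.7 and fell by 0.69 (limma adjusted p = 0.0039). Without it the list summed to 22.9 and 17.8 FPKM in set 1 and to 20.0 and 22.0 in set 2. Neurog1, at 2.23 and 0.161 FPKM in set 1, has no value in set 2, so these sums do not hold the same genes in both sets. Of 7 tested neural markers 1 fell and 0 rose, where 9.8% of all genes fell and 0.0682% rose. Nestin (Nes), an intermediate filament of neural progenitors, was at 11.9 and 14.0 FPKM in set 1 and at 9.37 and 12.2 in set 2. Their part in the value of Tubb3 was not tested.

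Promoters of Tuba1b, Tuba1a and Tubb3 are shown because Tuba1b and Tuba1a are neighbours of which one passed the test, and because Tubb3 had the lowest mean ratio. They are the 250 bases before the annotated start (RefSeq, GRCm38.p6; the deposited tables were made on mm9), read 5′ to 3′ on the strand of the gene. Capitals mark matches on either strand to any of 4 motifs. The CCAAT box was searched as its own letters, and the GC box was searched with the letters GGGCGG. For the TATA box the search used the letters TATAAA, and for the E-box it used the palindrome CACGTG. No match overlaps another in the sequences shown. Tuba1b lies at chr15:98934391-98934640 on the minus strand, Tuba1a at chr15:98953502-98953751 on the minus strand, and Tubb3 at chr8:123411303-123411552 on the plus strand.
Tuba1b: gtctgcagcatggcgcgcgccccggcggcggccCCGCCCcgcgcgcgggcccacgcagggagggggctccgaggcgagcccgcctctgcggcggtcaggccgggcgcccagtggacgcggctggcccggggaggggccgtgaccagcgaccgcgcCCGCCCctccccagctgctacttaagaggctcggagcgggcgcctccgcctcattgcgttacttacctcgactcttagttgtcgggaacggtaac
Tuba1a: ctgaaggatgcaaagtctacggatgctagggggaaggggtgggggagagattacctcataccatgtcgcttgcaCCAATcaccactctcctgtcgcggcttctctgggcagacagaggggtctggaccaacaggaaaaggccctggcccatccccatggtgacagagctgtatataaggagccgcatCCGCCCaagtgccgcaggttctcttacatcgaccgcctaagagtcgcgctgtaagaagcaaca
Tubb3: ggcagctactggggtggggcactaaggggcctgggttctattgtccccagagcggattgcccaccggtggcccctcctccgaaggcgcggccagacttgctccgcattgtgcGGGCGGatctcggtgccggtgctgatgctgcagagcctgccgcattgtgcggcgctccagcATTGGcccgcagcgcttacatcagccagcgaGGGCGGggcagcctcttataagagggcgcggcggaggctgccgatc
The Tuba1b window held 2 GC boxes at 75.6% G and C, that of Tuba1a 1 GC box and 1 CCAAT box at 56.8%, and that of Tubb3 2 GC boxes and 1 CCAAT box at 68.0%. Among all 32851 promoter windows of this length 32.7% held a GC box, 33.8% a CCAAT box, 12.4% a TATA box and 6.02% an E-box. Tubb5, which also fell, had 2 CCAAT boxes, 1 E-box and 0 GC boxes in its window, so the isotypes that fell did not have one set of these letters in common.

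Genes that fold, nucleate, modify or bind tubulin were read from 7 lists. Of 99 genes 81 were listed and 73 tested; 5 fell and 0 rose, or 6.85% of those tested against 9.8% of all genes. In the relative comparison 0 of them passed in limma. In the list of other tubulins 0 of 4 passed. Tuba3a, a testis-type alpha isotype, was at 2.69 and 1.16 FPKM in set 1 and 3.84 and 1.68 in set 2 (limma adjusted p = 0.12). The delta and epsilon tubulins of centrioles, Tubd1 and Tube1, had log2 changes of -0.63 and -0.46.

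Of 12 folding genes 1 fell. Pfdn2, a subunit of prefoldin, which hands new tubulin to the chaperonin, went from 20.6 to 10.0 FPKM and from 14.6 to 8.45 and fell by 0.91 (limma SE 0.25, adjusted p = 0.0078). The other subunit named by the rule, Pfdn1, had a log2 change of -0.34, and Tbce, a cofactor of alpha tubulin folding, one of -0.35. The list's medians were -0.12 in set 1 and -0.44 in set 2. Ttc5, the reader of tubulin autoregulation, was at 44.6 and 39.8 FPKM in set 1 and at 41.6 and 31.7 in set 2, a log2 change of -0.28 (limma adjusted p = 0.30).

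Of 16 genes of the gamma-tubulin ring and of augmin, the complex that branches microtubules in the spindle, 1 fell. Haus4, an augmin subunit, went from 55.4 to 41.0 FPKM and from 57.9 to 29.2 and fell by 0.71 (limma SE 0.18, adjusted p = 0.0052). Haus5 had a log2 change of -0.58 and Tubgcp6, a ring component, one of -0.54, and neither passed. The list's medians were -0.34 in set 1 and -0.32 in set 2, against -0.46 and -0.33 for all tested genes.

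None of 13 tested modifying enzymes passed in limma, among them the tyrosine ligase Ttl (log2 change -0.66), the detyrosinating enzyme Vash1 (-0.79) and the polyglutamylase Ttll5 (-0.53). None of 16 associated and plus-end proteins passed either, with Map9 at -0.95, Map7d1 at -0.79 and Map7 at -0.79. The medians of these lists were -0.64 and -0.68 in set 1 but -0.17 and -0.29 in set 2.

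Of 11 destabilising and severing proteins 3 fell, against 9.8% of all genes, and 0 passed in the relative comparison. All 11 were lower in both sets, as were 72.4% of all tested genes. Kif2a, a kinesin that depolymerises microtubule ends, went from 17.9 to 5.86 FPKM and from 9.21 to 6.17 and fell by 1.08 (limma SE 0.28, adjusted p = 0.0046). The others were Stmn2, given above, and Stmn1, the stathmin that binds free tubulin dimers, which was named after its values were seen. Stmn1 went from 274 to 182 FPKM and from 218 to 160 and fell by 0.52 (limma adjusted p = 0.0309). Stmn3 had a log2 change of -1.17 without passing, at 3.41 FPKM or less.

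**Figure D4:**
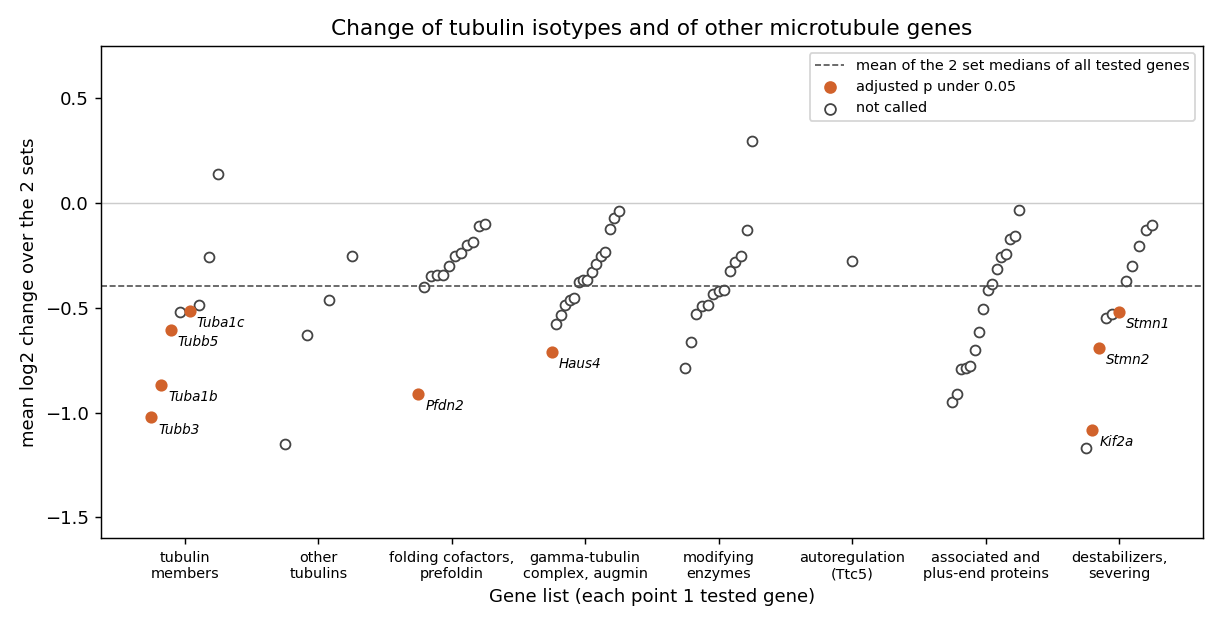
Mean log2 change over the 2 sets for each tested gene of the isotypes and of 7 lists of tubulin and microtubule genes, with filled points where limma's adjusted p is under 0.05 and a dashed line at the mean of the 2 set medians of all tested genes. Called are 4 of the 8 isotypes and 5 of the 73 list genes (6.85%), the latter in 3 of the lists. Over all tested genes 9.8% fell.

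The tested genes whose levels over the 4 libraries ran most like those of Tuba1b and Tubb3 were found by the Euclidean distance of log2 values centred on each gene's mean. For Tuba1b these were Cgnl1 (distance 0.0528), Pnpla2 (0.0587) and Mbd3 (0.0631). Mbd3, a subunit of the NuRD chromatin complex, was at 52.9 and 30.1 FPKM in set 1 and at 49.9 and 27.5 in set 2. For Tubb3 they were Tnks1bp1 (0.0717), Zbtb45 (0.117) and Epb4.1 (0.128), the last a membrane skeleton protein at 11.8 and 5.61 FPKM in set 1 and 7.18 and 4.09 in set 2. With 4 libraries and 10261 genes, profiles this close are a description only.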

How the data were processed

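RNA-seq of 4 mouse embryonic stem cell libraries was used. The authors deposited 1 table per set. Its values were taken as FPKM, because the values are not whole and the submitters' processing notes list Cufflinks 2.2.0 and Cuffdiff beside TopHat2 2.0.10, TopHat and build mm9; the header writes no unit. Not given in the sources used here are the annotation, how the ERCC spike-ins entered the values, and how shared reads were handled. The deposited ratio of each locus equalled the quotient of its values to within 4.97e-06. The lowest value is 0.100, so lower loci were not analysed here.

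Genes were joined by symbol, leaving out merged loci and repeated symbols: 11728 were named in both tables, and 10261 had a mean of at least 1 FPKM. Each set has its own table, and whether the 2 share a scale is not given in the sources used here. Set is therefore a block, and levels were ranked within each library. The 2 libraries of a set deviated together from their group means (r = 0.483 across genes). Tests used log2(FPKM + 0.1), a scale that understates changes of low genes, and limma 3.58.1 in R 4.3.3 with a variance trend, two-sided, Benjamini-Hochberg at 0.05, 1 residual degree of freedom and prior degrees of freedom of Inf, so a gene's own spread does not enter its p-value. The script was tested on simulated data with the same noise for every gene and no shift shared by most genes. That test therefore cannot judge the calls where the real data differ from this.

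The isotypes and gene lists were chosen with earlier results of these data known. Besides Chd1 and the isotypes, the text names up to 3 genes per list with the largest mean change of the same sign in both sets, and 3 genes nearest in profile to Tuba1b and Tubb3, leaving out predicted genes and small RNAs. Marker genes, Stmn1 and Tubb4b stand outside that rule. Transcripts are from GENCODE M21, aligned with Biopython 1.88; promoters are from RefSeq, where 7 of the 10 genes matched and could be used.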

Additional observations from a re-analysis of the deposited data

Results flagged for a closer look

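Tuba1a and Tubb4b lay on opposite sides of the median of all genes in the 2 sets. Tuba1a stood at 0.37 above it in set 1 and at -0.09 in set 2, and Tubb4b at 0.44 and -0.16. Whether the sets differ was not tested, since each has 1 library per group. Both transcripts share windows of 100 bases with other genes (65.1% and 29.2%), and the part of shared reads in these values was not tested.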

How the results depend on the processing

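A pseudocount of 1 left 4 isotypes called in the absolute comparison, with 905 of 10261 tested genes. Without a filter on low values there were 4 isotypes and 933 of 11728 genes. Summing of repeated symbols gave 4 isotypes and 1014 of 10368 genes. Over 7 alternatives with a test, 41 values of single isotypes in that comparison kept direction and side of the threshold, 14 lost a call, and 1, that of Tuba1a with library totals, turned from -0.26 to 0.14.

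Raising the filter to 5 FPKM left 227 of 6861 tested genes and 2 isotypes called, and 5 genes in the relative comparison. Without the replicate block 0 genes were called in either comparison (limma; 1043 and 154 genes at an unadjusted p under 0.05), and 0 isotypes. With one common prior variance 0 were called as well (1718 and 614 unadjusted), and 0 isotypes. Divided by library totals, 85 genes were called (36 lower, 49 higher) and 0 isotypes, against 1013 (1006 lower, 7 higher). The cause of these losses was not tested.

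The summed log2 ratio of -0.62 became -0.23 with library totals and -0.50 with Tubb4b added, an alternative chosen after seeing the data. The share of Tubb5 in beta RNA, lower by -3.94 percentage points, became -5.35 with Tubb4b. In set 2 the main sum and the main beta share leave out Tubb2a and Tubb2b. The log2 ratio of neuronal to general beta isotypes, -0.13, averages Tubb3 with Tubb2b in set 1 and Tubb3 alone in set 2. It became 0.035 with the merged locus added in set 2, while set 1 still left out Tubb2a. With Tubb2a counted in both sets it was 0.053, and for Tubb3 alone against Tubb5 and Tubb4b -0.65. Leaving out a set in turn gave -0.67 to -0.58 for the sum, -8.90 to -8.17 points for Tuba1b in alpha, -4.30 to -3.57 for Tubb5 and -0.35 to 0.09 for the neuronal ratio. A single set allows no test. Read depth is unknown, so no limit from depth can be given.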
